A study of Rattus norvegicus with 6 samples.

Results

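The genes described here carry the cyclic AMP (cAMP) signal of the heart from the enzyme that makes the messenger to the proteins that hold its effectors in place. They were chosen by gene name alone, as every line of the deposited table whose symbol is an adenylyl cyclase (Adcy), a phosphodiesterase (Pde), a catalytic or regulatory subunit of protein kinase A (Prkac, Prkar), an A-kinase anchoring protein (Akap), a Popeye domain protein (Popdc, Bves) or a cAMP-activated exchange factor (Rapgef3, Rapgef4). The rule found 65 lines with 64 symbols among 32883 genes. There were 10 cyclases, 6 kinase subunits, 26 phosphodiesterases, 18 anchoring proteins, 2 exchange factors and 3 Popeye genes. Pde4dip matched the rule by its first letters and is counted with the anchoring proteins, because its product, myomegalin, binds phosphodiesterases and does not cleave cAMP.

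RNA was sequenced from myocardial tissue of 3 obesity-prone (OP) Sprague-Dawley rats that had eaten a high-fat diet for 12 months and of 3 obesity-resistant (OR) Sprague-Dawley rats kept on standard food for the same 12 months, with 1 library per rat. Feeding began in young animals, and the question was what differs in hearts of OP rats with metabolic syndrome from those of lean OR rats. Both lines are selectively bred and each was given 1 diet, so that line and diet, as sources of a difference, cannot be told apart. The tissue was bulk heart muscle, in which fewer cells of a type and less RNA per cell cannot be told apart either.

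When a hormone or transmitter binds a receptor coupled to the stimulatory G protein, adenylyl cyclase converts ATP into cAMP. In cardiac muscle the messenger releases the catalytic subunits of protein kinase A (PKA) from their regulatory subunits, and the freed kinase phosphorylates calcium channels, phospholamban and myofilament proteins, which speeds and strengthens the beat. Phosphodiesterases end the signal by cleaving cAMP, cGMP or both. Anchoring proteins bind the PKA regulatory subunits and place the kinase beside its substrates, often together with a cyclase or a phosphodiesterase, while Epac exchange factors and Popeye proteins bind cAMP without PKA.

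Values are given in CPM, reads of a gene per 1000000 reads assigned to genes in a library. The 6 libraries held 10838184 to 12831596 assigned reads, so that 1 read was worth 0.0779 to 0.0923 CPM. Summed cardiomyocyte markers, none of them near 0, lay at 33780 to 35860 CPM in OP hearts and at 34720 to 37770 CPM in OR hearts. OP replicate 2 stood apart from the other libraries. It held 3905 CPM of summed fibroblast markers, against 1985 to 2425 CPM in the other 5. Its summed atrial muscle markers reached 2611 CPM, against 784.5 to 1513 CPM. Col1a1 (883 CPM), Col3a1 (2075 CPM) and Nppa (2265 CPM) were highest in this heart. The remaining tested markers of both lists lay within the range of the other 5 libraries. Of the marker lists of other cells, Schwann cell and nerve genes summed to 44.8 to 85.4 CPM in OP hearts and 26.1 to 29.1 CPM in OR hearts, with 3 of the 6 tested markers called higher, and endothelial genes to 1033 to 1202 CPM in OP hearts and 768 to 953 CPM in OR hearts. The smooth muscle and pericyte list summed to 1096 to 1328 CPM in OP hearts and 1010 to 1087 CPM in OR hearts, with 6 of 8 markers higher in every OP heart and 1 called higher. Beside these lists, 10.4% of all genes tested lay higher in every OP heart. In either direction 3.37% were called, at an adjusted p under 0.05 from limma. In the mast cell list 2 of 5 were called higher, whereas Kit was lower in every OP heart without being called (log2 fold change -0.53). In the T and natural killer cell list 1 of 5, Ptprc, was called lower. In that list Cd3e, Cd3g and Cd2 had log2 fold changes of 0.07, 0.04 and 0.17, and Nkg7 one of -0.53. The lists for atrial muscle, skeletal muscle, endothelium, fibroblasts, macrophages, mesothelium and blood had 0 markers called. Of the 6 adipocyte markers only Fabp4 was tested and it was not called, though every OP heart lay above every OR heart; Adipoq had 0.3, 2.3 and 3.05 CPM in OP hearts, against 0, 0.6 and 0.1 CPM in OR hearts, and Lep and Ucp1 stayed below 1 CPM. The part of these cells in the results below was not tested.

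Not one of the cAMP genes passed the test of the comparison. Of the 65 lines, 53 reached 1 CPM in at least 3 libraries and were tested with limma on log2(scaled value + 4), where 4 is 0.2 CPM and makes fold changes of rare transcripts smaller, with Benjamini-Hochberg adjustment across the 13445 genes that passed the same filter. At an adjusted p under 0.05, 0 members were higher and 0 were lower in OP hearts, whereas 3.37% of all genes tested passed. Voom on the recovered reads also called 0. The lowest adjusted p among the members was 0.0608, for Pde3a. At an unadjusted p under 0.05, 10 of the 53 members were lower in OP hearts (18.9%, against 12.0% of all genes tested) and 5 were higher (9.43%, against 10.4%). In 12 members every OP value lay below every OR value (22.6%, against 17.7% of all genes), and in 4 every OP value lay above (7.55%, against 10.4%). The median log2 fold change of the tested members, OP over OR, was -0.11, beside 0.0 over all genes tested.

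OP replicate 2 often stood at the edge of the values. It gave the lowest or the highest value of the 6 libraries in 37 of the 53 members, 69.8% of them, against 55.4% of all genes tested. Each of the other libraries did so in 17.0% to 28.3% of the members. Without OP replicate 2 the members' median log2 fold change was -0.04. At an unadjusted p under 0.05, 10 of 52 tested members were then lower (19.2%, against 12.1% of all genes) and 2 were higher (3.85%, against 11.2%).

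**Figure D1:**
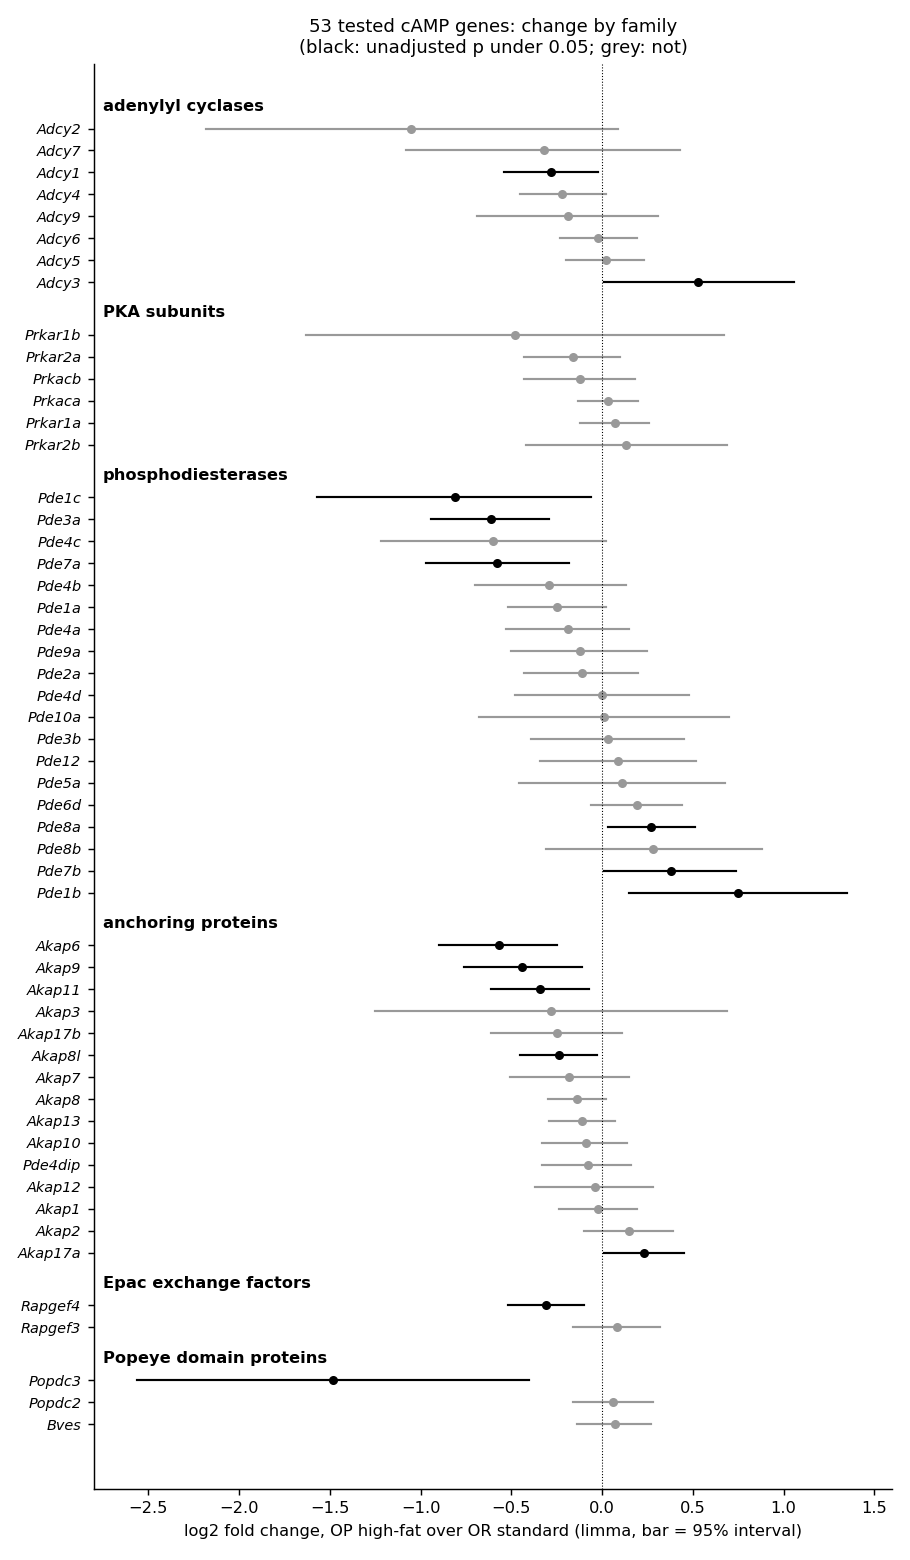
Log2 fold change of each of the 53 tested cAMP genes, OP high-fat over OR standard (horizontal axis), grouped by family, with the 95% interval from limma as a bar. Black marks the 15 genes at an unadjusted p under 0.05, of which 10 lie left of 0 and 5 right of it; no gene passed the adjusted threshold.

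The receptors and G proteins that act on the cyclases were read from a separate list, of which 27 of 36 genes found in the table were tested. Of these 27, 1 was called higher and 2 lower in OP hearts, beside 3.37% of all genes tested called in either direction. The median log2 fold change was 0.12, beside 0.0 over all genes tested. Chrm2, the main muscarinic receptor of heart muscle, which restrains cyclase through the inhibitory G protein, had 44.0, 44.6 and 63.6 CPM in OP hearts, against 82.0, 104 and 89.1 CPM in OR hearts. All 3 OP hearts lay below all 3 OR hearts, and the transcript fell (log2 fold change -0.82, SE 0.15, adjusted p 0.0293). Gcgr, the glucagon receptor, coupled to the stimulatory G protein, had 8.95, 6.45 and 7.9 CPM in OP hearts, against 25.7, 15.9 and 28.9 CPM in OR hearts, without overlap, and fell as well (log2 fold change -1.49, SE 0.23, adjusted p 0.0164). Adcyap1r1, the receptor of the neuropeptide PACAP, which also raises cAMP, had 21.2, 17.7 and 18.7 CPM in OP hearts, against 9.15, 9.55 and 12.6 CPM in OR hearts. It was higher in each OP heart than in any OR heart and rose (log2 fold change 0.92, SE 0.15, adjusted p 0.0223). Each of these calls was lost when certain libraries were left out: Chrm2 without OP replicate 1 or any OR replicate (adjusted p up to 0.132), Gcgr without OR replicate 1 or 3 (up to 0.095) and Adcyap1r1 without the first replicate of either group or the second of the OR group (up to 0.0973).

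Adrb1, the main beta-adrenergic receptor of cardiac muscle, averaged 5.23 ± 0.983 CPM in OP hearts and 4.23 ± 0.825 CPM in OR hearts (SD, n = 3 each), with overlapping groups and a log2 fold change of 0.34 (95% interval -0.15 to 0.83). Gnas, which encodes the stimulatory G protein subunit, had 586, 594 and 573 CPM in OP hearts, against 548, 532 and 541 CPM in OR hearts. Its groups were close but did not overlap, and the difference did not pass the test (log2 fold change 0.16, SE 0.07, adjusted p 0.228).

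Adenylyl cyclases make the messenger, and the 8 tested had a median log2 fold change of -0.21. Adcy5 and Adcy6, the isoforms best known from heart muscle and both restrained by the inhibitory G protein, did not separate the groups. Adcy5 had 379, 300.1 and 364 CPM in OP hearts, against 334, 355 and 372 CPM in OR hearts. Adcy6 had 214, 237 and 200.4 CPM in OP hearts, against 228, 231 and 222 CPM in OR hearts. The values of the groups overlapped for both genes, and the 95% interval of the log2 fold change was -0.20 to 0.23 for Adcy5 and -0.23 to 0.19 for Adcy6. The ratio of Adcy5 to Adcy6 within a library was 1.77, 1.27 and 1.81 in OP hearts, against 1.47, 1.54 and 1.67 in OR hearts.

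The other cyclases were more scattered. Adcy1, a calcium- and calmodulin-stimulated isoform best known from brain, had 15.6, 13.8 and 15.8 CPM in OP hearts, against 17.6, 18.2 and 21.1 CPM in OR hearts. These groups did not overlap, but the difference missed the adjusted threshold (log2 fold change -0.28, SE 0.11, adjusted p 0.201). Adcy3, known for its part in olfactory signalling and in primary cilia, had 20.7, 12.0 and 11.0 CPM in OP hearts, against 10.6, 8.95 and 10.3 CPM in OR hearts. The OP values lay above the OR values, mostly through OP replicate 1 (log2 fold change 0.53, SE 0.23, adjusted p 0.22). Adcy2, Adcy4 and Adcy7, named after their values were seen, belong to the subgroup that G protein beta-gamma subunits stimulate.

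Adcy2 had 0.65, 3.65 and 1.45 CPM in OP hearts, against 3.9, 3.9 and 2.9 CPM in OR hearts, and OP replicate 2 was in the range of the OR hearts (log2 fold change -1.05, SE 0.49, adjusted p 0.256). Adcy7, the isoform best known from blood cells, showed the same split, with 8.1, 19.8 and 8.3 CPM in OP hearts, against 15.2, 12.8 and 15.1 CPM in OR hearts. OP replicates 1 and 3 were thus below every OR library and OP replicate 2 above all of them, so that the fold change over the groups was -0.32 with a 95% interval of -1.08 to 0.43. Adcy4 had 27.2, 25.2 and 28.9 CPM in OP hearts, against 37.0, 30.8 and 30.1 CPM in OR hearts without overlap (log2 fold change -0.22, SE 0.10, adjusted p 0.263). Adcy9, which binds the anchoring protein encoded by Akap9, had 15.1, 9.45 and 18.4 CPM in OP hearts, against 14.2, 18.0 and 17.2 CPM in OR hearts, and its groups overlapped. The remaining cyclases were not tested. Adcy8, a calcium-stimulated isoform, lay at 0.1 CPM or below in every library, under the 0.234 to 0.277 CPM that 3 reads are worth. Adcy10, the bicarbonate-sensitive soluble cyclase, lay at 0.7, 0.5 and 0.9 CPM in OP hearts, against 1.2, 0.85 and 1.75 CPM in OR hearts.

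Of the 6 subunits of PKA, 0 reached an unadjusted p under 0.05, and 0 separated the groups. Their median log2 fold change was -0.05. Prkaca, the main catalytic subunit, had 374, 365 and 401 CPM in OP hearts, against 376, 372 and 402 CPM in OR hearts. Prkar1a, the regulatory subunit of the type I kinase, had 385, 372 and 442 CPM in OP hearts, against 371, 397 and 409 CPM in OR hearts. In both genes the values of OP and OR hearts were interleaved, and the 95% intervals of the log2 fold change were narrow, -0.13 to 0.20 for Prkaca and -0.12 to 0.26 for Prkar1a. Prkacb, the other catalytic subunit, had 27.8, 20.1 and 24.8 CPM in OP hearts, against 24.2, 29.1 and 28.2 CPM in OR hearts. Prkar2a, the regulatory subunit of the type II kinase that most anchoring proteins bind, had 68.3, 54.6 and 70.2 CPM in OP hearts, against 65.0, 78.5 and 79.5 CPM in OR hearts. Again the groups overlapped, with OP replicate 2 lowest in both genes.

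The regulatory subunits better known from nerve cells and fat, Prkar1b and Prkar2b, lay at 0.3 to 1.95 CPM and at 3.0 to 5.0 CPM over the 6 libraries. The ratio of Prkacb to Prkaca differed by -0.16 on the log2 scale, OP minus OR, and that of Prkar2a to Prkar1a by -0.23. Neither was separable from the spread between rats in an exact two-sided permutation test (p = 0.4 and p = 0.2), which with 3 against 3 rats cannot go below 0.1.

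**Figure D2:**
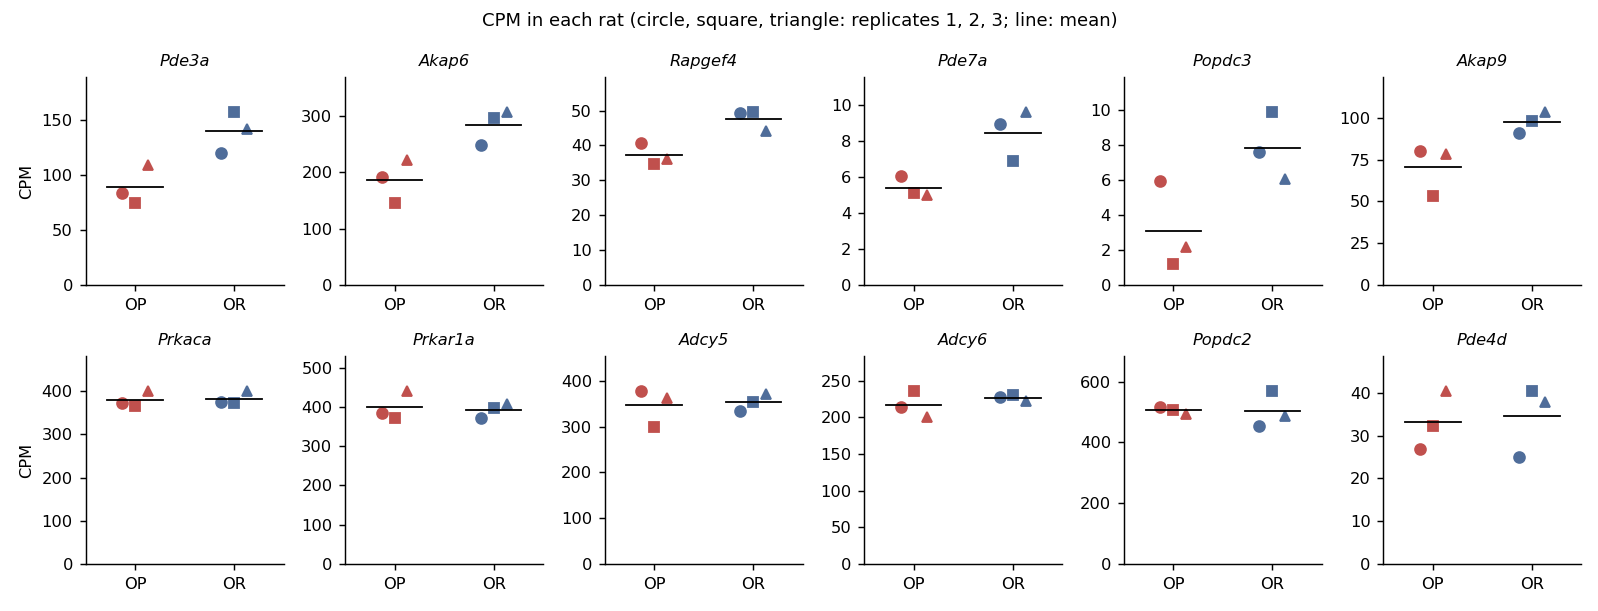
CPM in each heart (vertical axis, from 0) for 12 cAMP genes, with OP high-fat at left in red and OR standard at right in blue; circles, squares and triangles are replicates 1, 2 and 3, and the line is the group mean. In the upper row (Pde3a, Akap6, Rapgef4, Pde7a, Popdc3, Akap9) all 3 OP hearts lie below all 3 OR hearts, and in the lower row (Prkaca, Prkar1a, Adcy5, Adcy6, Popdc2, Pde4d) the groups overlap.

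The 19 phosphodiesterases tested had a median log2 fold change of 0.0, and among them Pde3a had the smallest p of all members. Its product, which cGMP inhibits, is a main cAMP-cleaving enzyme of cardiac muscle and the target of milrinone. Pde3a had 84.2, 74.6 and 109 CPM in OP hearts, against 121, 158 and 142 CPM in OR hearts. Every OP heart lay below every OR heart, the mean being 89.3 ± 17.9 CPM in OP hearts and 140 ± 18.7 CPM in OR hearts (SD, n = 3 each). The fitted level in OP hearts was 0.654 of that in OR hearts, just outside the threshold (log2 fold change -0.61, SE 0.14, adjusted p 0.0608). Over the full-library alternatives of scaling, filter, pseudocount and test its adjusted p was 0.0584 to 0.0705, and it passed only without OP replicate 3 (0.0339). Pde3b, the isoform through which insulin lowers cAMP in fat cells, averaged 4.9 ± 0.8 CPM in OP hearts and 4.92 ± 0.48 CPM in OR hearts (SD, n = 3 each), with overlapping groups.

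The Pde4 enzymes cleave cAMP alone and sit in complexes with their targets. Pde4d, found at the ryanodine receptor and at beta-adrenergic receptors, had 26.8, 32.3 and 40.5 CPM in OP hearts, against 25.1, 40.6 and 38.0 CPM in OR hearts. Pde4b, which is attached to the L-type calcium channel, had 26.1, 29.0 and 44.5 CPM in OP hearts, against 37.0, 43.6 and 42.0 CPM in OR hearts. Neither gene separated the groups, and the 95% interval of the log2 fold change was wide, -0.48 to 0.48 for Pde4d and -0.70 to 0.13 for Pde4b.

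The ratio of Pde4d to Pde3a within a library was 0.318, 0.433 and 0.371 in OP hearts, against 0.208, 0.257 and 0.267 in OR hearts. It was therefore higher in each OP heart than in any OR heart, by 0.61 on the log2 scale, with the smallest p that the exact two-sided permutation test allows (p = 0.1, 0.333 after Benjamini-Hochberg adjustment over 5 ratios). This difference came from Pde3a, since that of Pde4d was 0.0. The ratio of Pde4b to Pde4d differed by -0.29 (exact permutation p = 0.2, adjusted 0.333). Pde4a and Pde4c were named after their values were seen. Pde4a averaged 45.4 ± 10.5 CPM in OP hearts and 52.6 ± 1.85 CPM in OR hearts (SD, n = 3 each), and Pde4c had 11.1, 4.65 and 8.35 CPM in OP hearts, against 11.5, 11.1 and 13.6 CPM in OR hearts. OP replicate 2 was the lowest library in both, and OP replicate 1 lay within the OR range of Pde4c. A separate line of the table that also bears the symbol Pde4c held 0.1 CPM in 1 library and 0 in the others.

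Of the Pde1 enzymes, which calcium and calmodulin switch on, the members went different ways. Pde1b had 5.0, 2.55 and 3.4 CPM in OP hearts, against 2.4, 2.2 and 1.7 CPM in OR hearts. It was higher in each OP heart (log2 fold change 0.75, SE 0.26, adjusted p 0.147), but it was a rare transcript, and in the RefSeq annotation its span overlaps that of Ppp1r1a, so that its reads and those of its neighbour may not have been told apart, the strand setting of the counting being not given in the sources used here. Pde1c, the isoform best known from cardiac muscle, had 1.15, 0.85 and 2.15 CPM in OP hearts, against 2.4, 3.3 and 1.95 CPM in OR hearts. OP replicate 3 lay within the OR range (log2 fold change -0.81, SE 0.33, adjusted p 0.198). Pde1a averaged 10.5 ± 0.577 CPM in OP hearts and 12.9 ± 0.701 CPM in OR hearts (SD, n = 3 each), without overlap but with an adjusted p of 0.251.

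The Pde7 and Pde8 enzymes cleave cAMP with high affinity. Pde7a had 6.05, 5.1 and 5.0 CPM in OP hearts, against 8.9, 6.85 and 9.6 CPM in OR hearts. All OP hearts were below all OR hearts (log2 fold change -0.58, SE 0.17, adjusted p 0.111). Its relative Pde7b had 11.1, 15.8 and 15.8 CPM in OP hearts, against 11.0, 11.3 and 11.1 CPM in OR hearts, so that OP replicate 1 lay among the OR hearts and the other OP replicates above them (log2 fold change 0.38, SE 0.16, adjusted p 0.214). Pde8a had 24.4, 28.7 and 28.6 CPM in OP hearts, against 24.2, 23.2 and 22.4 CPM in OR hearts. Here the groups were separated by the narrow step between OP replicate 1 and OR replicate 1 (log2 fold change 0.27, SE 0.10, adjusted p 0.183). Pde8b lay at 1.4 to 2.65 CPM with overlapping groups.

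Pde2a, which cGMP stimulates to cleave cAMP, had 108, 83.3 and 104 CPM in OP hearts, against 101, 134 and 95.9 CPM in OR hearts. Pde5a, the cGMP-specific enzyme that sildenafil inhibits, had 4.55, 4.75 and 3.15 CPM in OP hearts, against 4.35, 2.9 and 4.65 CPM in OR hearts. The groups overlapped for both. The other tested members of this family, Pde6d, Pde9a, Pde10a and Pde12, had log2 fold changes of 0.19, -0.12, 0.01 and 0.09. Of these, Pde9a cleaves cGMP and Pde10a both nucleotides, whereas Pde6d is a carrier of lipid-modified proteins and Pde12 an RNA-degrading enzyme of mitochondria that share only the name. The genes of the photoreceptor enzyme, Pde6a, Pde6b, Pde6c, Pde6g and Pde6h, lay at 0 to 0.4 CPM, and Pde11a, which cleaves both nucleotides, at 0.1 to 0.9 CPM. None of these 6 was tested.

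Of the 15 anchoring proteins tested, 13 had a negative log2 fold change, as had 6717 of all 13445 genes tested, and the median was -0.14. At an unadjusted p under 0.05, 4 were lower (26.7%, against 12.0% of all genes) and 1 was higher. Akap6 had the smallest p of the family. It encodes mAKAP, which ties PKA and phosphodiesterase to the nuclear envelope of muscle cells. Akap6 had 192, 146 and 222 CPM in OP hearts, against 248, 296 and 307 CPM in OR hearts. The groups did not overlap, the mean being 186 ± 38.5 CPM in OP hearts and 284 ± 31.3 CPM in OR hearts (SD, n = 3 each). The fitted level in OP hearts was 0.671 of that in OR hearts (log2 fold change -0.57, SE 0.14, adjusted p 0.0704). No alternative or left-out library brought its adjusted p under 0.05, the lowest being 0.0516 without OP replicate 2.

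Akap9 encodes a scaffold of the Golgi and the centrosome, one form of which, yotiao, brings PKA to the potassium channel KCNQ1. It had 80.0, 53.4 and 78.5 CPM in OP hearts, against 90.7, 98.1 and 104 CPM in OR hearts. OP replicate 2 was the lowest, and the other OP hearts were still below the OR hearts (log2 fold change -0.44, SE 0.14, adjusted p 0.128). Akap11, a scaffold of vesicles that also binds glycogen synthase kinase, had 59.0, 44.8 and 62.9 CPM in OP hearts, against 66.9, 76.2 and 73.0 CPM in OR hearts. OP replicate 2 was again the lowest, and the groups did not overlap (log2 fold change -0.34, SE 0.12, adjusted p 0.15). Akap8l, a nuclear protein, had 69.1, 81.2 and 73.8 CPM in OP hearts, against 94.5, 88.3 and 90.5 CPM in OR hearts. In this gene OP replicate 2 was the OP heart nearest to the OR hearts (log2 fold change -0.24, SE 0.09, adjusted p 0.178), and without it the adjusted p was 0.0379. Akap8, its nuclear paralogue, averaged 64.8 ± 1.81 CPM in OP hearts and 73.8 ± 2.31 CPM in OR hearts (SD, n = 3 each), without overlap (adjusted p 0.286).

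Akap17a, a nuclear protein of RNA splicing, went the other way, with 49.5, 53.2 and 54.9 CPM in OP hearts, against 47.9, 42.2 and 49.0 CPM in OR hearts. The OP hearts lay above the OR hearts by a small margin (log2 fold change 0.23, SE 0.09, adjusted p 0.204).

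Other scaffolds known from the cardiac muscle cell did not separate the groups. Akap1, which places PKA on the outer membrane of mitochondria, had 359.9, 288 and 305 CPM in OP hearts, against 310.2, 341 and 347 CPM in OR hearts. Akap7, the scaffold at the L-type calcium channel and at phospholamban, had 14.6, 10.6 and 12.5 CPM in OP hearts, against 13.4, 14.1 and 16.5 CPM in OR hearts. Akap12, or gravin, which works at beta-adrenergic receptors, had 73.7, 63.9 and 95.1 CPM in OP hearts, against 94.3, 78.6 and 73.1 CPM in OR hearts. Each of these genes had overlapping groups. Akap13 had 155, 145 and 169.8 CPM in OP hearts, against 172, 188 and 163 CPM in OR hearts, where OP replicate 3 lay within the OR range. Akap5, another scaffold of beta-adrenergic receptors, had 0.65, 0.75 and 0.75 CPM in OP hearts, against 0.65, 1.55 and 0.35 CPM in OR hearts and was not tested.

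Pde4dip, named after its values were seen, had 2817, 2114 and 2654 CPM in OP hearts, against 2768, 2737 and 2731 CPM in OR hearts, with OP replicate 2 alone far from the rest. Akap2, likewise named afterwards, had 174, 164 and 214 CPM in OP hearts, against 164, 190.2 and 159.5 CPM in OR hearts, with overlapping groups. Akap3, Akap10 and Akap17b had log2 fold changes of -0.28, -0.09 and -0.25. Akap4 and Akap14, known like Akap3 from sperm, lay at 0 to 0.8 CPM and at 0 to 0.45 CPM and were not tested. A list of 18 tested anchoring proteins that bear other gene names had 0 genes called higher and 0 called lower, with a median log2 fold change of 0.04.

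Rapgef3 and Rapgef4 encode Epac1 and Epac2, which activate Rap GTPases when cAMP binds. Rapgef4 had 40.7, 34.8 and 36.3 CPM in OP hearts, against 49.2, 49.7 and 44.3 CPM in OR hearts. The 3 OP values lay below all OR values (log2 fold change -0.31, SE 0.09, adjusted p 0.103). Rapgef3 had 46.5, 44.6 and 48.7 CPM in OP hearts, against 52.6, 43.9 and 40.7 CPM in OR hearts. Its groups overlapped, and the 95% interval of the log2 fold change was -0.16 to 0.32. Of the other cAMP-binding proteins and Epac effectors, 15 were tested, with 0 called higher and 0 called lower and a median log2 fold change of 0.02. Among them Hcn4, the pacemaker channel that cAMP opens directly, had 114, 93.0 and 96.9 CPM in OP hearts, against 98.4, 119 and 93.0 CPM in OR hearts.

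The Popeye proteins are cAMP-binding membrane proteins of striated muscle. Popdc3 had the largest fold change of all members, with 5.95, 1.2 and 2.2 CPM in OP hearts, against 7.6, 9.9 and 6.05 CPM in OR hearts. OP replicate 1 was just below the lowest OR heart and the other OP hearts far below it (log2 fold change -1.48, SE 0.47, adjusted p 0.123). The 95% interval, -2.56 to -0.40 on the log2 scale, was wide, and without OP replicate 1 the adjusted p was 0.0308. Popdc2 had 517, 507 and 493 CPM in OP hearts, against 453, 570.2 and 486 CPM in OR hearts. Bves, also called Popdc1, had 67.0, 72.7 and 63.4 CPM in OP hearts, against 65.9, 66.0 and 67.8 CPM in OR hearts. These muscle transcripts overlapped between the groups, with 95% intervals of -0.16 to 0.28 for Popdc2 and -0.14 to 0.27 for Bves.

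A call on a member was made in 3 of the 6 fits with 1 library left out. Without OP replicate 1 it was Popdc3 alone, when 1.32% of all genes tested passed. Without OP replicate 3 it was Pde3a alone, with 1.92% of all genes. Without OP replicate 2 the members called were Akap8l, Adcy7 and Adcy2, with 5.82% of all genes, and the log2 fold changes of the cyclases were then -0.76 for Adcy7 and -1.64 for Adcy2. All 5 were lower in OP hearts. Without any of the OR replicates 0 members were called.

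**Figure D3:**
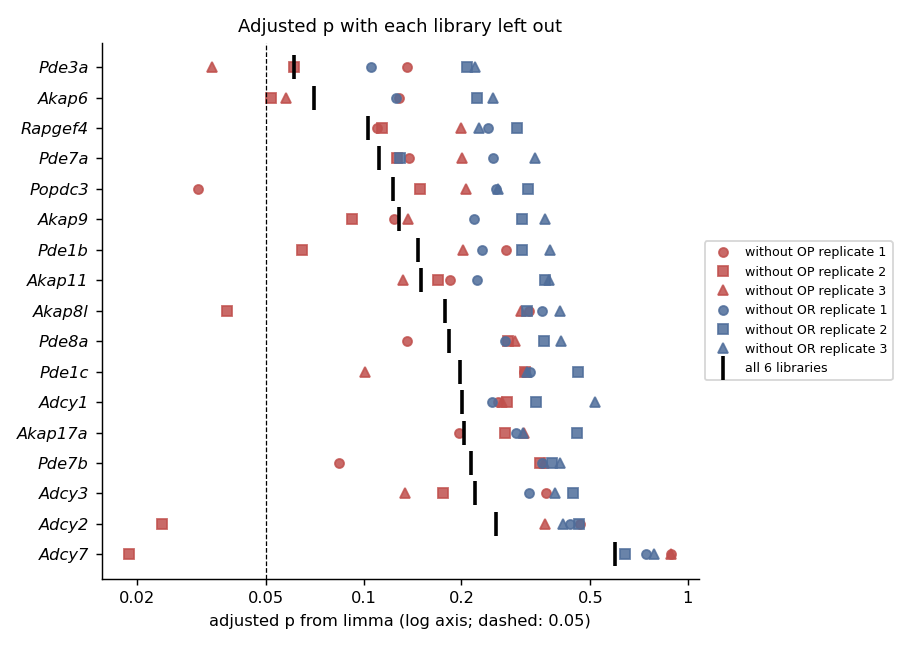
Adjusted p from limma (horizontal log axis, dashed line at 0.05) for the 15 members at an unadjusted p under 0.05 and for Adcy2 and Adcy7, with all 6 libraries (bar) and with each library left out (OP red, OR blue). Points left of the line are Pde3a without OP replicate 3, Popdc3 without OP replicate 1, and Akap8l, Adcy2 and Adcy7 without OP replicate 2.

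Downstream of the kinase, the inhibitors of PKA and the phosphatases that reverse its action had 0 of 15 tested genes called, and the PKA substrates of contraction and calcium cycling 0 of 18. The median log2 fold change was 0.03 over the inhibitors and phosphatases and -0.01 over the substrates. Pkia, an inhibitor of the free catalytic subunit, averaged 320 ± 7.98 CPM in OP hearts and 328 ± 24.5 CPM in OR hearts (SD, n = 3 each). Pln, phospholamban, had 2833, 2774 and 2656 CPM in OP hearts, against 3018, 2980 and 3148 CPM in OR hearts. Its OP values lay below its OR values by a margin that the fit did not separate from the spread (log2 fold change -0.10, SE 0.09, adjusted p 0.533). Ryr2, the calcium release channel, had 1527, 1091 and 1529 CPM in OP hearts, against 1448, 2102 and 1944 CPM in OR hearts, with overlapping groups.

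The CREB family and the transcripts that cAMP is known to induce had 1 of 22 tested genes called, beside 3.37% of all genes tested. Their median log2 fold change was -0.09. Ppargc1a, the coactivator of mitochondrial biogenesis and a classic CREB target, had 39.4, 34.5 and 43.2 CPM in OP hearts, against 51.9, 59.2 and 66.3 CPM in OR hearts. It fell without overlap (log2 fold change -0.55, SE 0.12, adjusted p 0.0464), though by a narrow margin, as the adjusted p was 0.0512 with voom, 0.0533 without the filter and up to 0.185 with 1 library left out. The call was kept only where the library left out was OP replicate 2 (0.0467). At an unadjusted p under 0.05, 7 genes of the list were lower in OP hearts (31.8%, against 12.0% of all genes tested) and 1 was higher (4.55%, against 10.4%). Those other than Ppargc1a were named after their values were seen and were not called. The higher gene, Pck1, passed the filter of 1 CPM in 3 libraries only through the OP hearts, where it was high.

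Sik1, a kinase that keeps the CREB coactivators out of the nucleus and is itself induced by cAMP, had 48.4, 56.2 and 57.0 CPM in OP hearts, against 100.2, 70.5 and 79.7 CPM in OR hearts. Nr4a1, an early-response nuclear receptor, had 54.2, 43.9 and 41.0 CPM in OP hearts, against 147, 64.9 and 99.3 CPM in OR hearts. Both were lower in every OP heart, with OR replicate 1 the highest library (log2 fold change -0.57, SE 0.14, adjusted p 0.065 for Sik1, and log2 fold change -1.04, SE 0.26, adjusted p 0.0708 for Nr4a1). Per1, a clock gene with a cAMP-inducible promoter, had 73.0, 77.2 and 64.4 CPM in OP hearts, against 151, 88.0 and 116 CPM in OR hearts. Dusp1, a phosphatase of MAP kinases, had 164, 98.6 and 189 CPM in OP hearts, against 282, 244 and 237 CPM in OR hearts. Their groups did not overlap either, and the adjusted p was 0.0983 for Per1 and 0.0808 for Dusp1. Nr4a3 had a log2 fold change of -1.34 with overlapping groups (limma adjusted p 0.135), and Creb3l2 one of -0.48 without overlap (adjusted p 0.0671). Pck1, the gluconeogenic enzyme, had one of 1.16 at 1.65, 4.1 and 1.5 CPM in OP hearts, against 0.85, 0.95 and 0.9 CPM in OR hearts.

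**Figure D4:**
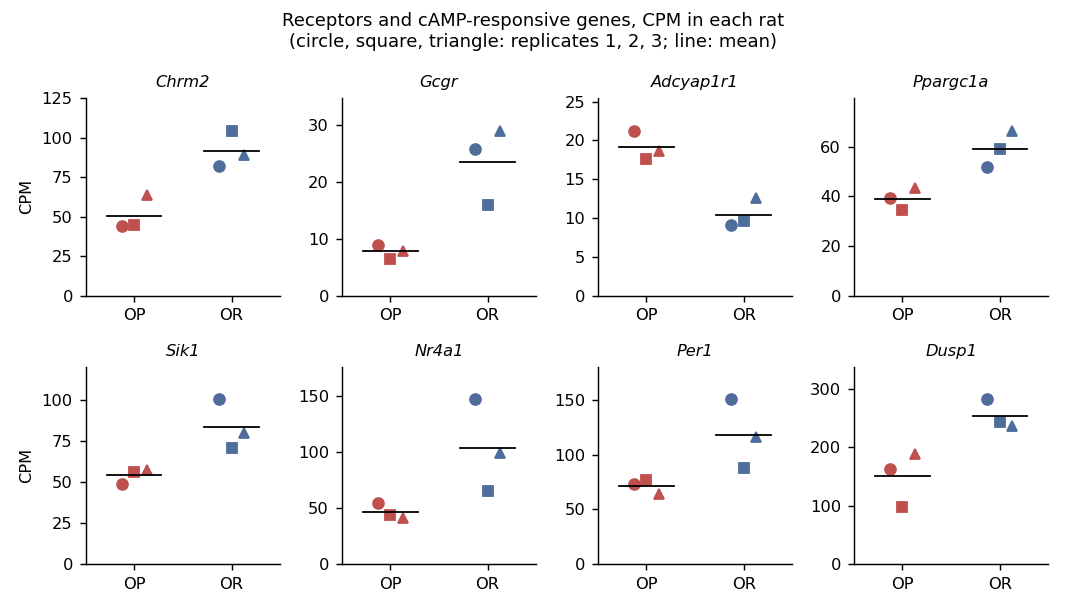
CPM in each heart (vertical axis, from 0) for 3 receptors that act on adenylyl cyclase and 5 cAMP-responsive genes. OP high-fat is at left in red and OR standard at right in blue. Circles, squares and triangles are replicates 1, 2 and 3, and the line is the group mean. In all 8 genes the groups are separated, with Adcyap1r1 higher in OP hearts and the others lower; Chrm2, Gcgr, Adcyap1r1 and Ppargc1a passed the adjusted threshold.

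CREB binds the cAMP response element TGACGTCA or its core TGACG, which reads CGTCA on the other strand and lies within the full element. Promoters of 300 bases, 250 before to 50 after the start in RefSeq (GRCr8), were searched on both strands. They were found for 50 of the 64 member symbols, as 64 promoters, of which 1 held the full element (1.56%, against 1.83% of all 33469 promoters) and 15 held the core site (23.4%, against 21.2%). The share among the cAMP genes was thus close to that of all promoters. Of the 15 members at an unadjusted p under 0.05, 11 had a promoter in the table, and among these Akap17a, Akap11 and Pde8a had a site before the start. These stretches are shown as the places where the pathway's own transcription factor could be looked for, with the site named in capitals and any other copy left in lower case. The full element of Akap17a, which begins 212 bases before the start, stands at chr12:21428432-21428479 on the minus strand, and a core site of Akap11 at chr15:60365530-60365574 on the minus strand begins 219 bases before it. The core site of Pde8a, 86 bases before the start, lies at chr1:144575363-144575407 on the plus strand.
Akap17a: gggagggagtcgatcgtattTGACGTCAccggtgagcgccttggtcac
Akap11: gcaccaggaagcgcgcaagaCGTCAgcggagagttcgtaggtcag
Pde8a: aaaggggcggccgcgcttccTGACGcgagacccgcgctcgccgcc

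Of the 8 genes of the CREB and cAMP-responsive list at an unadjusted p under 0.05, 7 had a promoter in the same table. Of these, 6 held the core site and 2 the full element, beside 21.2% and 1.83% of all promoters. Ppargc1a, the only one called, held the full element 181 bases before the start, at chr14:63634107-63634154 on the plus strand. Dusp1 held it 124 bases before the start, at chr10:17184709-17184756 on the plus strand. Nr4a1 held 4 core sites before the start, and the one 53 bases before the start is at chr7:134260065-134260109 on the plus strand. Sik1 had 2 core sites before the start, of which the one 180 bases before the start is at chr20:9958802-9958846 on the minus strand, with the other in lower case upstream of it. They are printed as examples, the called gene first and then genes that were lower in every OP heart. Creb3l2, which was lower, and Pck1, which was higher, also held the core site and are not printed. The list was written from CREB family genes and transcripts known to be induced by cAMP, so such sites could be expected in advance. Their share in it therefore says nothing about these hearts. A match of letters is a description and shows no binding in these hearts.
Ppargc1a: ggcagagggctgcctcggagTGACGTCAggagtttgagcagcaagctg
Dusp1: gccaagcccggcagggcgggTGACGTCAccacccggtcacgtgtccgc
Nr4a1: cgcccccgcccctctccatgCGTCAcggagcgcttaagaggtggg
Sik1: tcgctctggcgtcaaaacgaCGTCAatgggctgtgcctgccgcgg

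Beyond their names, many members shared a long genomic span. By genomic span in RefSeq (known for 11974 of the 13445 genes tested, 89.1%, and for 52 members), 33 members fell into the longest 3 of 10 equally filled bins of genes. The median log2 fold change of all genes differed between the bin of the shortest genes (0.10, median span 2.83 kb) and that of the longest (-0.10, median span 207 kb), and without OP replicate 2 it was 0.04 and -0.07 in these bins. Of the 10 members that were lower at an unadjusted p under 0.05, 7 stood in the longest 3 bins, as did 33 of all 52 members. Of those that were higher, Adcy3, Pde7b and Pde8a stood there as well, and Akap17a and Pde1b did not. Set against the median of its own bin, the median member had a log2 fold change of -0.06 in place of -0.12, Pde3a one of -0.52, Akap6 one of -0.48 and Popdc3 one of -1.48. The part of span in these values was not tested further.

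**Figure D5:**
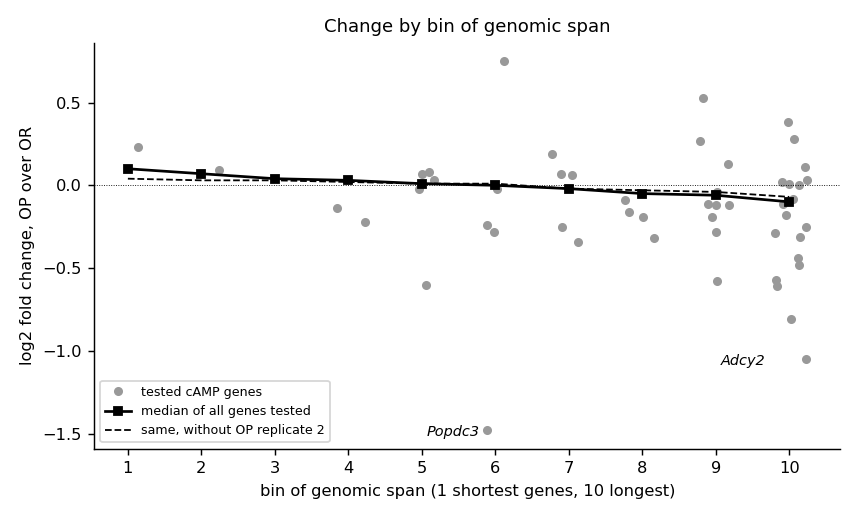
Log2 fold change, OP over OR (vertical axis), against bins of genomic span from the shortest genes (1) to the longest (10): grey points are the 52 tested members with a known span (spread sideways for legibility), the solid line is the median of all genes tested and the dashed line the same without OP replicate 2. The solid line goes from 0.10 in the first bin to -0.10 in the last, and 33 of the points stand in the last 3 bins.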

How the data were processed

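RNA from the hearts of 6 rats (3 OP high-fat, 3 OR standard) was made into TruSeq mRNA libraries, and according to the submitters' processing notes reads were handled with Trimmomatic, STAR and HTSeq on Rnor 6.0. The deposited value is a score: the authors brought the reads of every library to a sum of 20000000 and rounded each value up, so they are not raw counts, and CPM is the value divided by 20. Reads were recovered as the smallest total that explains these steps, with 99.75% to 99.88% of values matched exactly. A floor of 3 reads, 0.234 to 0.277 CPM, was a fixed choice and was not derived from the data. The planned test kept its form: TMM factors (trims of 30% and 5%), log2(value + 4), limma 3.58.1 in R 4.3.3 allowing a trend of variance with level, two-sided p-values and Benjamini-Hochberg adjustment across the 13445 genes that reached 1 CPM in 3 or more libraries. The fit was tested on simulated data. Tables were made with pandas 2.3.3 and NumPy 2.4.6 under Python 3.11.15.

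The members, the 6 pathway lists and the 13 marker lists were chosen with earlier results of these data known. Values are given for 21 main heart isoforms, for the 15 members at an unadjusted p under 0.05 and for 8 members named after their values were seen. Of the pathway lists they are given for called genes and for Adrb1, Gnas, Pkia, Pln, Ryr2 and Hcn4. Those of Sik1, Nr4a1, Per1, Dusp1 and Pck1 were added after their values were seen. A symbol on several lines of the table stood in the lists as its line with the most reads. Alternatives were median-of-ratios or no rescaling, voom on recovered reads, no filter or 10 reads in every library, pseudocounts of 1 and 20, robust variances, a replicate block and each library left out. Levels are not corrected for gene length and are not compared between genes. Spans and promoters came from RefSeq (GRCr8), another build than that of the authors, where 40 of 63 member symbols overlap another gene.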

Additional observations from a re-analysis of the deposited data

How the results depend on the processing

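The count of 0 members called higher and 0 called lower was the same under every alternative with all 6 libraries: another scaling, voom, other filters and pseudocounts, robust variances and the replicate block. An added limit of 1 on the absolute log2 fold change could only leave this count at 0. With 1 library left out, 0 to 3 members were called lower and 0 were called higher. Over the 50 genes followed through all alternatives, 698 values kept direction and call, 28 changed sign, 5 gained a call and 17 lost one. These were the tested members named by rule or afterwards, the called pathway genes and those named by rule. Pathway genes named only after their values were seen were not followed, and some gained a call. Without OP replicate 2 the limma adjusted p was 0.0191 for Dusp1 and 0.0404 for Sik1. Without OR replicate 2 it was 0.0364 for both Nr4a1 and Nr4a3. The changes of sign were in genes near 0. Without rescaling, the log2 fold change was -0.03 for Adcy5, -0.03 for Hcn4, -0.05 for Pde4d, -0.03 for Pkia and -0.01 for Prkaca, when the median of all genes was -0.05 and that of the members -0.16. With 1 library left out it ranged from -0.04 to 0.10 for Adcy5, -0.11 to 0.06 for Adcy6, -0.38 to 0.05 for Adcy9, -0.11 to 0.02 for Akap1, -0.18 to 0.06 for Akap12, -0.01 to 0.14 for Bves, -0.06 to 0.12 for Hcn4, -0.19 to 0.04 for Pde2a, -0.21 to 0.15 for Pde4d, -0.16 to 0.02 for Pde4dip, -0.09 to 0.31 for Pde5a, -0.05 to 0.07 for Pkia and -0.01 to 0.16 for Popdc2. The difference in the log2 ratio of Adcy5 to Adcy6 ranged from -0.054 to 0.204. The cause of these changes was not tested.

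Samples with the same replicate number were not known to be related, and their deviations from the group means correlated at 0.059, 0.075 and 0.127, with not every sample closest to its own number. With the number as a replicate block, 281 genes were called in place of 453, and 13 members in place of 15 had an unadjusted p under 0.05. Among the pathway lists, Ppargc1a lost its call under the block (adjusted p 0.0524), and 3 genes gained one, Nr4a1 (0.048), Crhr2 (0.0355) and Fos (0.0375). The count of all genes called ran from 56 to 775 with 1 library left out. Over the tested members the median half-width of the 95% interval was 0.33 on the log2 scale with 3 rats a group.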

Other observations

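Upstream of the cyclases, 5 further genes of the receptor and G protein list had an unadjusted p under 0.05 without being called, and they are given here as values chosen after they were seen. With the called genes, 4 of the 27 tested were higher and 4 lower at this threshold (14.8% each, against 10.4% and 12.0% of all genes tested). Adora2a, an adenosine receptor that raises cAMP, had a log2 fold change of 0.47, OP over OR (limma adjusted p 0.0659), and Gnai2, a subunit of the inhibitory G protein, one of 0.32 (adjusted p 0.07). Calcrl, the receptor of adrenomedullin and calcitonin gene-related peptide, had one of 0.20 (adjusted p 0.206). In these 3 genes every OP heart lay above every OR heart, which held for 5 of the 27 (18.5%, against 10.4% of all genes tested). Arrb1, an arrestin that uncouples receptors from G proteins, had one of -0.48 without overlap (adjusted p 0.0915), and Crhr2, a receptor of urocortins, one of -1.23 with overlapping groups (adjusted p 0.195).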
